A study of Mus musculus with 8 samples.

Results

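Titin, the proteins of the Z-disc and the stretch-responsive proteins that sit beside them were followed through 9 genes (Ttn, Ldb3, Myoz2, Actn2, Flnc, Xirp1, Xirp2, Ankrd1 and Csrp3) in the infarcted mouse heart. The 9 were a fixed list of gene symbols looked up in the count tables. No cutoff on a measured value chose them, but earlier results of these data were known when the list was made. All 9 were among the 24062 genes present in both tables, and all 9 passed the low-count filter that left 15508 genes tested. RNA came from left ventricular free wall of male C57BL/6 mice aged 8 to 12 weeks, 3 days after ligation of the left anterior descending artery (MI), 3 days after sham surgery, 1 day after ligation and 1 day after sham surgery. After ligation the tissue taken was the ischaemic part of the wall, and each group held 2 mice, described as biological replicates, with 1 library each. Total RNA was depleted of ribosomal RNA before sequencing, and no genotype or drug was varied. The letters A and B follow the column order within a group, since the count columns carry no replicate number.

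Titin is a giant spring protein that runs from the Z-disc, where thin filaments of neighbouring sarcomeres are joined, to the M-band in the middle of the sarcomere. Alpha-actinin 2 (Actn2) crosslinks actin at the Z-disc and anchors titin there. Ldb3, also called Cypher or ZASP, and Myoz2, also called calsarcin-1, bind alpha-actinin. Filamin C (Flnc) crosslinks actin at the Z-disc and at the intercalated disc that joins heart muscle cells, and it binds the Xin proteins Xirp1 and Xirp2, which are recruited to damaged myofibrils. Ankrd1, an ankyrin repeat protein known as CARP, binds the elastic part of titin and also enters the nucleus, and its RNA is known to increase when heart muscle is stretched or overloaded. Csrp3, known as muscle LIM protein, is a small Z-disc protein whose loss causes dilated cardiomyopathy in mice.

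Promoters of 3 members that were higher after MI at 1 day (Ankrd1, Xirp2 and Flnc) are shown with that of Ldb3, which was lower. Each sequence is the 250 bases before an annotated start, on the strand of the gene, from RefSeq on GRCm38.p6, and 8 of the 9 members had an entry, all but Xirp1. Capitals mark matches, on either strand, to 4 motifs: MCAT (CATTCC), AP-1 (TGANTCA), and the motifs known as MEF2 and CArG. MCAT is bound by TEAD factors, AP-1 by Fos and Jun proteins, and CArG by serum response factor. The Ankrd1 promoter lay at chr19:36119845-36120094 on the minus strand, Xirp2 at chr2:67445752-67446001 on the plus strand, the second Flnc start at chr6:29433006-29433255 on the plus strand, and the first Ldb3 start at chr14:34588682-34588931 on the minus strand.
Ankrd1: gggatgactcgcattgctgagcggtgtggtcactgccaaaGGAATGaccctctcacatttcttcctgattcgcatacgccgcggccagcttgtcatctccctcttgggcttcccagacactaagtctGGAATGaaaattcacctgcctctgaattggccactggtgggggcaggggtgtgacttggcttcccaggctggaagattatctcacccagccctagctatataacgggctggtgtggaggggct
Xirp2: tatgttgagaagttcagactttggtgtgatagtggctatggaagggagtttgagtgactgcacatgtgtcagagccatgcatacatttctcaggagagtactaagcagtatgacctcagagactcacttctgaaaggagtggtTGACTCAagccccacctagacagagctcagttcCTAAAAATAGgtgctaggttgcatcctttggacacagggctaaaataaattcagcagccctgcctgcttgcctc
Flnc start 2: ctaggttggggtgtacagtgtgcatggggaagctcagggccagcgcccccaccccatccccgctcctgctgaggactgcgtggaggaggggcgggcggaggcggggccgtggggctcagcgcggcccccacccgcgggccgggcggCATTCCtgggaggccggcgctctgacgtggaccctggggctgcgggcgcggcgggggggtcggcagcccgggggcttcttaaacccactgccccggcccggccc
Ldb3 start 1: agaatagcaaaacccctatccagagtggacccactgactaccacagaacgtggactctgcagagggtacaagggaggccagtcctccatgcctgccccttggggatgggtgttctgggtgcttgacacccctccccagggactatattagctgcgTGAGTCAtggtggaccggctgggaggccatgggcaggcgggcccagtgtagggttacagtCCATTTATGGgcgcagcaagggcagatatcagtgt
Ankrd1 held 2 MCAT matches, starting 210 and 123 bases before the start. The second Flnc start held 1 MCAT match, 104 bases before it, and the first Flnc start held none of the 4 motifs. Xirp2 held an AP-1 match 107 bases and a MEF2 match 74 bases before its start. The Ldb3 sequence held an AP-1 match 95 bases and a CArG match 35 bases before its start. Of 32851 promoter windows of the same length, 12.6% held MCAT, 6.75% AP-1, 0.508% MEF2 and 1.47% CArG. Ttn and Myoz2 each held a MEF2 match, and none of the 4 was found for Actn2 or Csrp3. No motif was thus common to these 3 members, and AP-1 was found in a member of each direction. These are matches of letters, and binding was not measured.

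Gene counts per library totalled 7382490 to 25041386, and the lowest total was that of MI library B at 1 day. The smallest count of any member was 1243, for Ldb3 in MI library A at 3 days. Levels are CPM, counts scaled to a common library size with TMM-adjusted totals, which corrects for sequencing depth. MI library B at 1 day also stood apart in that reads were counted for 92.1% of 1513 olfactory, vomeronasal, trace amine and taste receptor genes there. That share was 23.6% in the other MI library of that day, 50.6% in its sham library B and 4.43 to 8.20% in the rest. The 10 cardiomyocyte markers summed to 47430 and 35770 CPM in MI libraries at 1 day, against 102800 and 95560 CPM in sham. At 3 days they summed to 4197 and 4497 CPM in MI libraries, against 69480 and 74540 CPM in sham, and all 10 were lower by test on both days. Monocyte and macrophage markers summed to 6985 and 7295 CPM in MI libraries at 3 days, against 1645 and 848 CPM in sham, and neutrophil markers to 2661 and 1403 CPM in MI libraries at 1 day, against 235 and 179 CPM in sham. Skeletal muscle markers, which share titin and the Z-disc with heart, summed to at most 34.1 CPM, the value of MI library B at 1 day. In bulk tissue, fewer heart muscle cells and less RNA per heart muscle cell cannot be told apart.

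At 1 day after ligation the 9 genes did not move together. The filamin, Xin and ankyrin repeat genes Flnc, Xirp1, Xirp2 and Ankrd1 were 3.16- to 6.62-fold higher after MI than after sham surgery. Ldb3 and Actn2 were lower, and Ttn, Myoz2 and Csrp3 did not pass the test. Thus 6 of 9 passed an edgeR quasi-likelihood test with Benjamini-Hochberg adjustment over all genes tested at 0.05, where 39.0% of all genes passed. Among the members 4 were higher and 2 lower, against 19.3% of all genes higher and 19.7% lower. The median log2 fold change was -0.26 over the 9 and 0.12 over all genes tested.

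Titin took the most counts of any gene in both MI libraries at 1 day and in all 4 sham libraries. It had 55779 and 77923 CPM in MI libraries A and B at 1 day, against 88987 and 70977 CPM in sham libraries A and B. The groups overlapped, and the log2 fold change was -0.26 (SE 0.34, adjusted p = 0.569, edgeR). Titin alone took 5.43 and 8.58% of all gene counts in the MI libraries at 1 day, against 7.43 and 6.14% in sham.

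Among the alpha-actinin group, Ldb3 changed most at 1 day. It had 412 and 292 CPM in MI libraries, against 1218 and 1003 CPM in sham libraries. Both MI libraries lay far below both sham libraries, and the log2 fold change was -1.66 (SE 0.21, adjusted p = 0.000468, edgeR). Actn2 had 1710 and 1058 CPM in MI libraries, against 2773 and 2334 CPM in sham, again with no overlap. On the log2 scale Actn2 differed by -0.88 (SE 0.23, adjusted p = 0.014, edgeR). That call was lost without either sham library of that day (adjusted p = 0.132 without A and 0.0555 without B, edgeR). Myoz2 had 729 and 891 CPM in MI libraries, against 1136 and 1019 CPM in sham. The Myoz2 groups did not overlap, but the difference of -0.41 on the log2 scale missed the threshold (SE 0.18, adjusted p = 0.0894, edgeR).

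Flnc, the actin crosslinker of the Z-disc, had 3406 and 2507 CPM in MI libraries at 1 day, against 1115 and 754 CPM in sham libraries. Both MI libraries were above both sham libraries, and the log2 fold change was 1.66 (SE 0.23, adjusted p = 0.000753, edgeR). Its partner Xirp1 had 2197 and 1076 CPM in MI libraries, against 577 and 420 CPM in sham. The MI libraries of Xirp1 differed about as much from each other as the lower of them did from sham, and the log2 fold change was 1.72 (SE 0.30, adjusted p = 0.00238, edgeR). Without sham library B at 1 day Xirp1 missed the threshold (log2 fold change 1.02, adjusted p = 0.0556, edgeR). Xirp2, the larger Xin protein, had 5969 and 10089 CPM in MI libraries, against 1293 and 1978 CPM in sham. It was 4.91-fold higher (log2 fold change 2.30, SE 0.30, adjusted p = 0.000559, edgeR), and in MI library B only 2 other genes had more counts.

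Ankrd1, the titin-binding ankyrin repeat protein, showed the largest rise of the 9 at 1 day. It had 7576 and 9002 CPM in MI libraries, against 1083 and 1422 CPM in sham libraries. The groups were far apart, and the level was 6.62-fold higher after MI (log2 fold change 2.73, SE 0.22, adjusted p = 9.83e-05, edgeR). Csrp3, the muscle LIM protein, had 1238 and 1269 CPM in MI libraries, against 1661 and 1630 CPM in sham. Replicates of Csrp3 lay close together and the groups did not overlap, yet the difference of -0.39 on the log2 scale missed the threshold (SE 0.16, adjusted p = 0.0757, edgeR). DESeq2, run here, called both Csrp3 (adjusted p = 0.00963) and Myoz2 (adjusted p = 0.0267) lower at 1 day. In the authors' deposited DESeq2 values neither passed at 1 day (adjusted p = 0.174 for Csrp3 and 0.162 for Myoz2). These 2 calls thus depended on the test and its settings.

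Leaving out MI library B at 1 day, the library with reads over most receptor genes, gave log2 fold changes of 2.60 for Ankrd1, 1.87 for Xirp2, 2.14 for Xirp1, 1.87 for Flnc, -1.43 for Ldb3 and -0.58 for Actn2, all past the threshold in edgeR, and Myoz2 then also passed (-0.56, adjusted p = 0.0257, edgeR). Together the 8 members other than Ttn took 2.26 and 2.88% of all counts in MI libraries at 1 day, against 0.906 and 0.913% in sham. The 4 members that were higher thus outweighed the lower ones in the total.

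**Figure D1:**
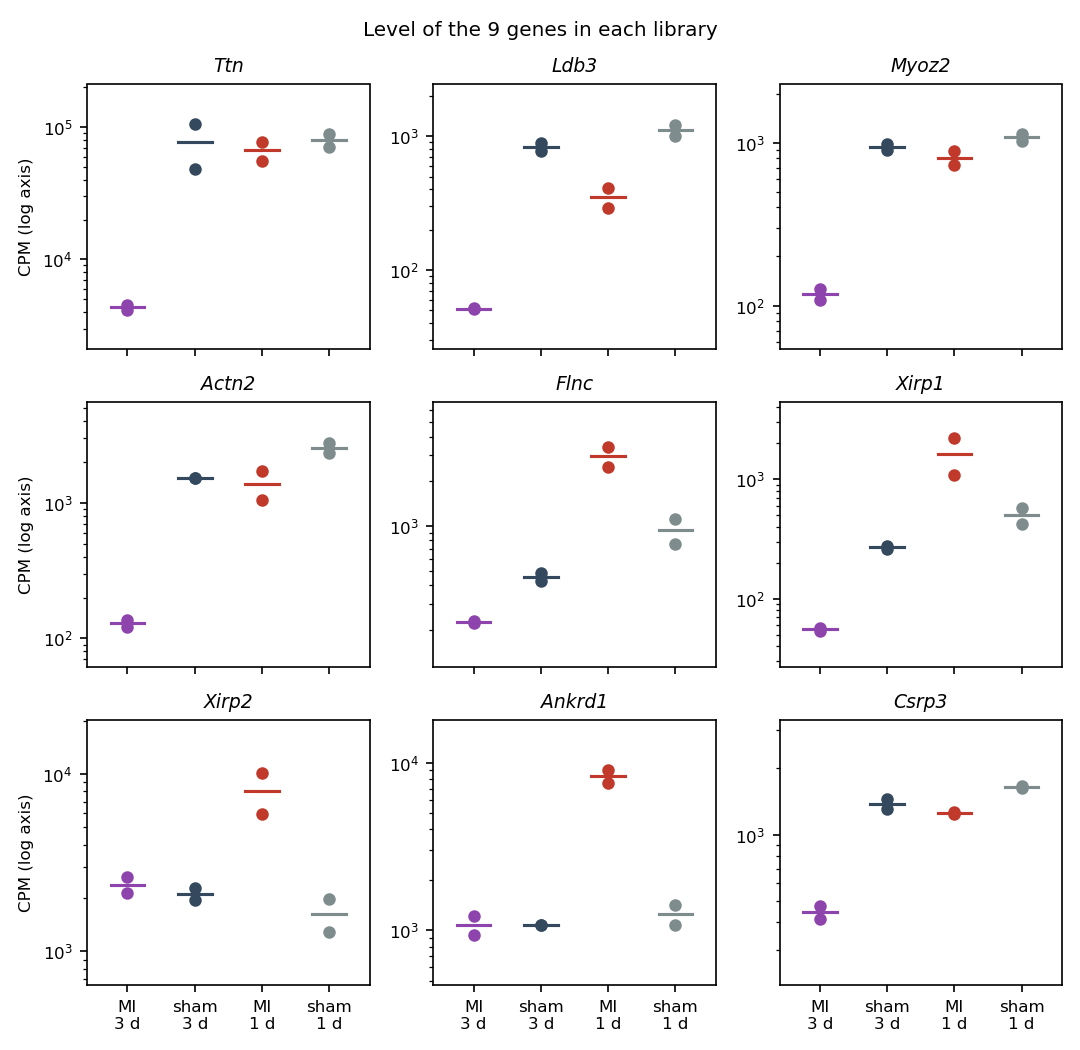
Level of each of the 9 genes in every library, in CPM on a log axis, for MI and sham at 3 days and MI and sham at 1 day. Points are libraries (2 mice a group) and lines are group means. Flnc, Xirp1, Xirp2 and Ankrd1 are highest in MI at 1 day, and at 3 days Xirp2 and Ankrd1 of MI overlap sham while the other 7 genes lie below it.

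At 3 days after ligation no member was higher than in sham. Titin and the alpha-actinin group were 8.07- to 17.6-fold lower than in sham, and Csrp3, Flnc and Xirp1 were also lower, by 2.01- to 4.85-fold. Xirp2 and Ankrd1 did not differ beyond the spread between libraries. In the edgeR test 7 of 9 members were lower, where 55.4% of all genes passed, 31.7% were higher and 23.7% were lower. The median log2 fold change was -2.28 over the 9 and 0.16 over all genes tested.

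Titin had 4549 and 4171 CPM in MI libraries at 3 days, against 48137 and 105170 CPM in sham libraries. The sham libraries differed from each other by more than any other pair of replicates for this gene, and both MI libraries lay far below. Titin was 17.6-fold lower (log2 fold change -4.14, SE 0.39, adjusted p = 1.8e-05, edgeR). Leaving out sham library A gave -4.59 and leaving out sham library B gave -3.45, and the call was kept in both. From the top place in the other groups, titin was at place 8 and 9 by count in the MI libraries at 3 days, with 0.527 and 0.489% of all counts, against 4.78 and 9.97% in sham.

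Ldb3 had 51.0 and 52.0 CPM in MI libraries at 3 days, against 770 and 890 CPM in sham. It was 16.1-fold lower (log2 fold change -4.01, SE 0.23, adjusted p = 1.72e-06, edgeR). The alpha-actinin gene itself, Actn2, had 136 and 122 CPM in MI libraries, against 1517 and 1527 CPM in sham, and it differed by -3.56 on the log2 scale (SE 0.25, adjusted p = 4.14e-06, edgeR). Myoz2 had 127 and 107 CPM in MI libraries, against 982 and 906 CPM in sham, and was 8.07-fold lower (log2 fold change -3.01, SE 0.19, adjusted p = 2.49e-06, edgeR). In all of these the replicates lay close together and the groups were far apart.

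Flnc had 230 and 223 CPM in MI libraries at 3 days, against 424 and 485 CPM in sham. It was 2.01-fold lower (SE 0.23 on the log2 scale, adjusted p = 0.00423, edgeR), the smallest of the called differences. The Flnc call was lost without sham library B at 3 days (adjusted p = 0.0505, edgeR). Xirp1 had 57.3 and 53.4 CPM in MI libraries, against 259 and 278 CPM in sham, with no overlap. Xirp1 was thus 4.85-fold lower (log2 fold change -2.28, SE 0.31, adjusted p = 0.000205, edgeR). Csrp3 had 472 and 414 CPM in MI libraries, against 1456 and 1313 CPM in sham, and was 3.13-fold lower (log2 fold change -1.65, SE 0.16, adjusted p = 2.55e-05, edgeR).

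Ankrd1 had 1218 and 943 CPM in MI libraries at 3 days, against 1071 and 1075 CPM in sham libraries. The MI libraries lay on either side of the sham libraries, and the log2 fold change was 0.01 (SE 0.21, adjusted p = 0.973, edgeR). Xirp2 had 2638 and 2125 CPM in MI libraries, against 1945 and 2283 CPM in sham. Its groups overlapped too, and they differed by 0.17 on the log2 scale (SE 0.28, adjusted p = 0.635, edgeR). Both stood apart in this from the cardiomyocyte markers, all 10 of which were lower at 3 days. What part other cell types had in the Ankrd1 and Xirp2 levels was not tested: fibroblast markers summed to 15370 and 15450 CPM in MI libraries at 3 days, against 7558 and 3766 CPM in sham. Of 10 smooth muscle and pericyte markers 3 were higher (Tagln, Acta2 and Cnn1) and 6 lower at 3 days, and they summed to 1578 and 1580 CPM in MI libraries, against 3401 and 3303 CPM in sham. Without Des and Abcc9, which heart muscle cells also express and which were left out after their values were seen, the sums were 1098 and 1096 CPM in MI libraries, against 1001 and 860 CPM in sham.

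**Figure D2:**
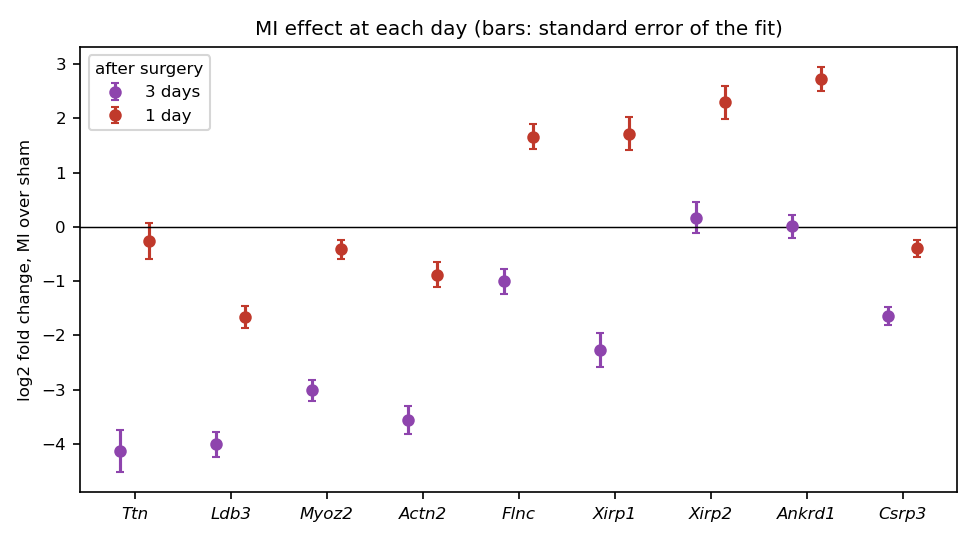
Log2 fold change of MI over sham for each of the 9 genes at 3 days and at 1 day after surgery, from the edgeR fit, with bars for the standard error. Flnc, Xirp1, Xirp2 and Ankrd1 are above 0 at 1 day, and for all 9 genes the 3-day point lies below the 1-day point.

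The effect of MI at 3 days was lower than that at 1 day for all 9 genes when the difference itself was tested, where 24.5% of all genes passed and 11.3% were lower. The log2 difference was largest for Xirp1 (-3.99, SE 0.44, adjusted p = 0.000393, edgeR) and Ttn (-3.88, SE 0.50, adjusted p = 0.000824, edgeR). For Ankrd1 the log2 fold changes were 0.01 at 3 days and 2.73 at 1 day, and the difference was -2.72 (SE 0.29, adjusted p = 0.00038, edgeR). Csrp3 had the smallest difference (-1.25, SE 0.22, adjusted p = 0.00416, edgeR), and its call was lost without sham library B at 1 day (adjusted p = 0.0536, edgeR). The other members lay between -2.68 and -2.12. The 1-day and 3-day libraries were also set directly against each other within each surgery. In MI tissue all 9 were lower at 3 days than at 1 day, where 45.4% of all genes passed and 22.0% were lower, and the fold ran from 2.83 for Csrp3 to 29.6 for Xirp1. In sham tissue no gene passed the edgeR test (0.00% of all genes), limma-voom also called 0, and DESeq2 called 60 of the 5672 genes for which it gave an adjusted p. Unadjusted p-values were under 0.05 for 1211 of the 15508 genes tested in edgeR, and for 3 of the 9 members.

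These 3 were Flnc, Actn2 and Xirp1, which were named here after their values were seen. Flnc had 424 and 485 CPM in sham libraries at 3 days, against 1115 and 754 CPM in sham libraries at 1 day. Its log2 difference was -1.04 (SE 0.23, adjusted p = 0.631, edgeR), and DESeq2 called it (-1.06, adjusted p = 0.00246). The log2 difference was -0.75 for Actn2 (SE 0.23, adjusted p = 0.631, edgeR) and -0.90 for Xirp1 (SE 0.30, adjusted p = 0.631, edgeR). For each of these 3, both sham libraries at 3 days lay below both sham libraries at 1 day. The same was true of Ldb3, Myoz2, Ankrd1 and Csrp3, so it did not set these 3 apart. The share of all genes separated in this way was not counted. For Flnc the sham level thus differed between the days by about as much as MI differed from sham at 3 days.

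Since the markers of heart muscle cells fell so far, the members were also set against 12 other heart muscle genes. These were Myh6, Myl2, Myl3, Mybpc3, Tnnt2, Tnni3, Tnnc1, Tpm1, Actc1, Lmod2 and Myl7, which encode proteins of the thick and thin filaments, and Pln, which regulates the calcium pump of the sarcoplasmic reticulum. They include 9 of the 10 cardiomyocyte markers. The 12 took 5.16 and 4.36% of all counts in MI libraries at 1 day, against 9.11 and 8.93% in sham, and 0.642 and 0.695% in MI libraries at 3 days, against 7.51 and 7.38% in sham. By this measure the members fell into separate kinds. For every 1000 counts of these genes Ankrd1 had 143 and 228 counts in MI libraries at 1 day, against 9.92 and 13.8 in sham, and 220 and 159 in MI libraries at 3 days, against 14.2 and 13.8 in sham. Ankrd1 thus lay above sham in both MI groups, and the 3-day MI libraries lay within the range of the 1-day ones. The measure divides by genes that fell, and most genes are higher on it. Scaled in this way, 63.3% of all genes were called higher at 1 day and 91.1% at 3 days. Xirp2 had 476 and 359 counts in MI libraries at 3 days, against 25.7 and 29.3 in sham, and 113 and 255 in MI libraries at 1 day, against 11.8 and 19.1 in sham. Csrp3 had 85.1 and 69.8 in MI libraries at 3 days, against 19.3 and 16.9 in sham. Its 1-day values were closer, at 23.4 and 32.1 in MI libraries, against 15.2 and 15.8 in sham.

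Flnc had 41.5 and 37.7 counts for every 1000 in MI libraries at 3 days, against 5.61 and 6.23 in sham, and 64.3 and 63.4 in MI libraries at 1 day, against 10.2 and 7.30 in sham. Titin and the alpha-actinin group differed less from sham at 3 days by this measure. Myoz2 had 22.8 and 18.1 in MI libraries at 3 days, against 12.99 and 11.64 in sham, and 13.8 and 22.5 in MI libraries at 1 day, against 10.4 and 9.86 in sham. Both MI groups of Myoz2 lay above sham, and its 1-day difference was as large as that of Csrp3 (0.84 on the log2 scale for each). Ldb3 had 9.19 and 8.78 in MI libraries at 3 days, against 10.2 and 11.4 in sham, and Actn2 had 24.5 and 20.6 in MI libraries, against 20.1 and 19.6 in sham. Titin had 821 and 704 in MI libraries at 3 days, against 637 and 1351 in sham, and at 1 day it had 1053 and 1970 in MI libraries, against 815 and 687 in sham. The titin groups did not overlap at 1 day and did at 3 days.

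With library sizes replaced by these reference counts, 6 members were called higher and 1 lower at 1 day, and 6 higher and 0 lower at 3 days, against 4 higher and 2 lower and 0 higher and 7 lower with the usual scaling. That scaling put the median of all genes tested at 1.31 at 1 day and 3.90 at 3 days on the log2 scale, and 65.1% of all genes passed at 1 day (63.3% higher, 1.85% lower) and 91.9% at 3 days (91.1% higher, 0.754% lower). For the difference between days 74.9% passed, and for MI at 3 days against MI at 1 day 86.7%. At 3 days Xirp2 (3.92, SE 0.45) and Ankrd1 (3.76, SE 0.34) were not separated from that median beyond their SE. The other members lay below it, with Flnc at 2.74, Csrp3 at 2.10, Xirp1 at 1.47, Myoz2 at 0.73, Actn2 at 0.19, Ldb3 at -0.27 and Ttn at -0.38. At 1 day Ankrd1 (3.97), Xirp2 (3.57), Xirp1 (2.88) and Flnc (2.87) lay above it and the other members below.

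**Figure D3:**
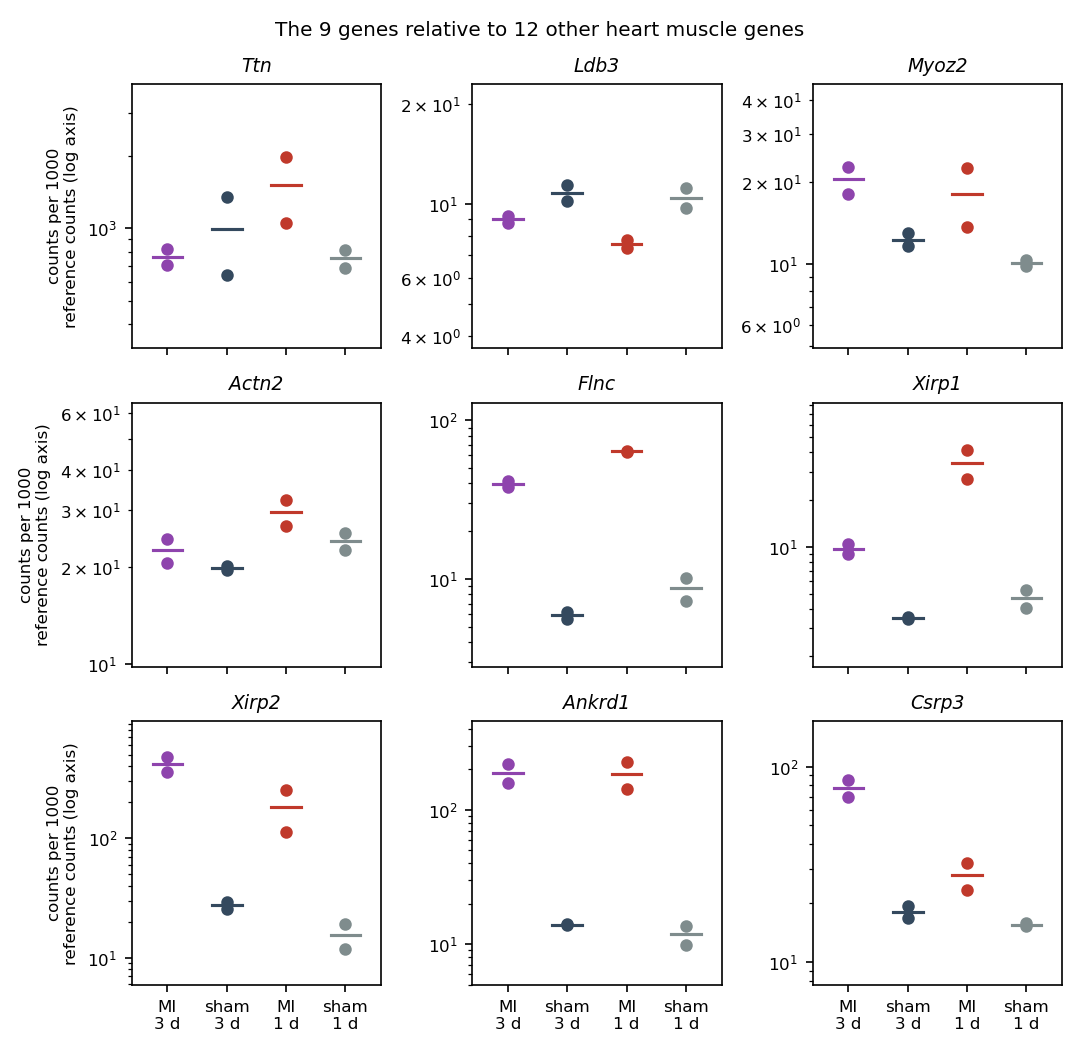
Counts of each of the 9 genes for every 1000 counts of 12 other heart muscle genes, per library on a log axis, for MI and sham at 3 days and MI and sham at 1 day. Points are libraries (2 mice a group) and lines are group means. Ankrd1, Xirp2, Flnc, Xirp1, Csrp3, Myoz2 and Actn2 lie above sham in MI at both days, Actn2 by the least, while Ldb3 lies below and Ttn overlaps sham at 3 days.

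Levels of different genes can be compared only per length, and transcript reads were therefore divided by transcript length in kb and scaled like CPM to a common library size (the quantity known as RPKM). In MI tissue at 3 days the order was Ankrd1 at 405 ± 69.0 (SD, n = 2), Csrp3 at 327 ± 24.4, Xirp2 at 129 ± 17.9 and titin at 94.1 ± 4.60. In sham tissue at 3 days titin was highest at 1689 ± 885, followed by Csrp3 at 1163 ± 49.2, Myoz2 at 635 ± 9.71, Ankrd1 at 459 ± 16.1 and Actn2 at 415 ± 22.3. Titin and Csrp3 were not separated beyond the spread of titin in sham tissue, nor were Ankrd1 and Csrp3 by much more than that of Ankrd1 in MI tissue. The per-length level of Ankrd1 was thus the highest of the 9 after MI at 3 days while its CPM matched that of sham tissue. In MI tissue at 1 day Ankrd1 reached 3653 ± 546, against 517 ± 98.7 in sham, and titin came after it at 1486 ± 250, against 1641 ± 231 in sham. Xirp1 had the lowest level of the 9 in both sham groups, at 13.1 ± 0.475 at 3 days and 42.9 ± 10.6 at 1 day. That place rests on transcript reads. The gene count of Xirp1 was 5.17 and 6.15 times its transcript reads in sham libraries at 3 days, against 1.89 to 2.33 times for the other members.

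Transcript reads also showed where the deposited quantifications differ. For 8 members the gene count was 1.89 to 2.33 times the reads summed over transcripts in every library. For Xirp1 the ratio was 15.9 and 11.4 in MI libraries at 3 days, against 5.17 and 6.15 in sham, and 3.61 and 4.24 in MI libraries at 1 day, against 3.00 and 2.94 in sham. The transcript table gave 88 and 138 reads to Xirp1 in MI libraries at 3 days, against 935 and 849 in sham. On those reads Xirp1 was 13.3-fold lower at 3 days (log2 fold change -3.74, SE 0.43, adjusted p = 9.99e-05, edgeR), against 4.85-fold in gene counts, and it was higher at 1 day by 1.46 on the log2 scale (SE 0.39, adjusted p = 0.0172, edgeR). The direction was the same in both tables and the size was not. Why the ratio differs was not tested. RefSeq places a predicted gene over part of Actn2 and another over part of Xirp2, and as the strand setting of the counting is not given, their reads cannot be told apart from those members.

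Single transcripts of Ldb3 moved by unequal amounts. The 8-exon transcript ENSMUST00000022330 took 32.6 and 41.1% of Ldb3 reads in MI libraries at 3 days, against 58.6 and 60.0% in sham, and 55.2 and 45.5% in MI libraries at 1 day, against 61.7 and 58.8% in sham. Its share was lower in MI than in sham at both days with no overlap. At 3 days it differed from sham by -4.71 on the log2 scale (SE 0.28, adjusted p = 2.24e-06, edgeR over all transcripts), against -3.77 (SE 0.30) for ENSMUST00000022328 and -3.68 (SE 0.24) for ENSMUST00000090040, and the difference between transcripts was not tested. The transcripts of Ldb3 share exons, so the deposited split of reads between them is an estimate.

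Csrp3 transcripts went in opposite directions at 1 day, where 14.4% of all transcripts passed the test. The 6-exon transcript ENSMUST00000032658, with most of the reads, was lower (log2 fold change -0.50, SE 0.15, adjusted p = 0.0479, edgeR). The 4-exon transcript ENSMUST00000208146 was higher (1.48, SE 0.29, adjusted p = 0.00824, edgeR), with 967 and 508 reads in MI libraries, against 418 and 449 in sham. At 3 days, where 29.2% of all transcripts passed, both were lower, by -1.61 (SE 0.15) and -2.38 (SE 0.30) on the log2 scale. In sham tissue the same 4-exon transcript had 1226 and 816 reads at 3 days, against 418 and 449 at 1 day, so its level varied in the controls as well.

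For titin, 16 of 20 transcripts tested were lower at 3 days, where 14.1% of all transcripts were lower, and none was higher. ENSMUST00000099981 (347 exons) and ENSMUST00000111882 (313 exons) were among those not called, at -0.01 (SE 0.27) and -0.02 (SE 0.28) on the log2 scale. ENSMUST00000099981 took 1.47 and 2.34% of titin reads in MI libraries at 3 days, against 0.149 and 0.0897% in sham. Its reads were 818 and 1274 in those MI libraries, against 649 and 763 in sham. Reads over all titin transcripts were 55749 and 54376, against 435971 and 850195, so its share was higher mainly because the other titin reads were fewer. At 1 day ENSMUST00000099981 was called higher (1.58, SE 0.28, adjusted p = 0.0054, edgeR over all transcripts). The deposited split of reads between titin transcripts is also an estimate. The 45-exon transcript ENSMUST00000099980 ends well short of the full chain, while ENSMUST00000011934 has 192 exons. The ratio of their reads, short over long, was 0.219 and 0.203 in MI libraries at 3 days, against 0.182 and 0.171 in sham, and 0.182 and 0.135 in MI libraries at 1 day, against 0.169 and 0.170 in sham. The MI libraries were above sham at 3 days, and the 1-day groups overlapped.

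**Figure D4:**
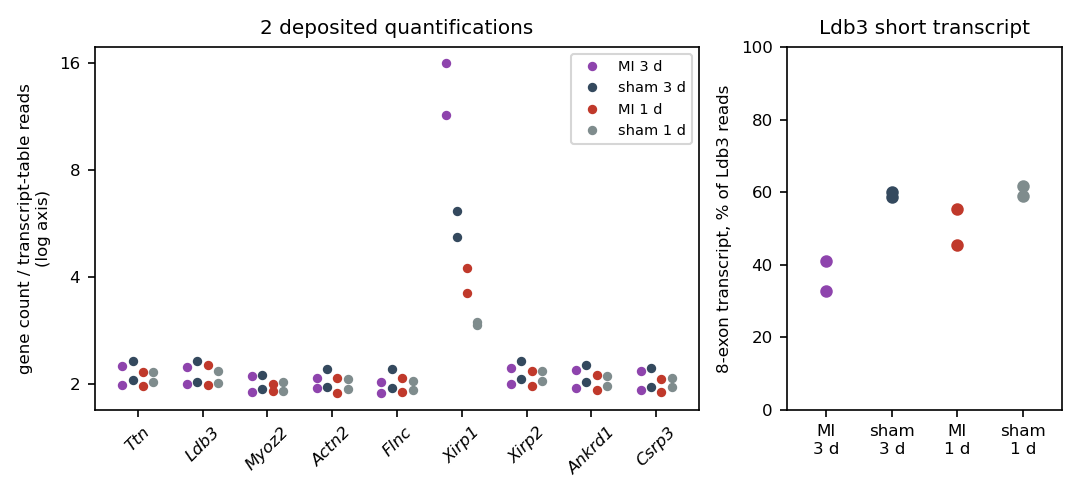
Left, gene count divided by transcript-table reads for each of the 9 genes on a log axis, with 1 point a library. Right, the share of Ldb3 reads given to its 8-exon transcript, in percent. Xirp1 alone lies above a ratio of 2.33, and the Ldb3 share is lowest in MI at 3 days (32.6 and 41.1%).

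Other genes of these structures were read from lists of partners. The shares of all genes to read these counts against are those given above, 19.3% higher and 19.7% lower at 1 day and 31.7% higher and 23.7% lower at 3 days. Of 13 titin partners and titin-processing genes, 8 were lower and 1 higher at 1 day (median -0.87, all genes 0.12), and all 13 were lower at 3 days (median -3.49, all genes 0.16). At 1 day the small heat shock gene Hspb1 was higher (log2 fold change 1.55, SE 0.37) and Obsl1, which binds titin, was lower (-2.12, SE 0.27). Tcap, which caps the titin end at the Z-disc, was lowest at 3 days (-4.34, SE 0.35). Of 3 M-band genes 2 were lower at 1 day, led by Myom1 (-0.74, SE 0.17), and all 3 at 3 days, led by Myom2 (-3.74, SE 0.19). Of the 12 heart muscle genes used above 11 were lower on each day, with Mybpc3 at -1.87 (SE 0.26) at 1 day and Myh6 at -5.17 (SE 0.34) at 3 days. Myl7, an atrial light chain, was the gene that did not pass on either day.

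Of 20 Z-disc scaffold genes 19 were tested, and 6 were higher and 4 lower at 1 day (median 0.06), and 5 were higher and 10 lower at 3 days (median -0.94). The 4 lower at 1 day and the 5 higher at 3 days are close to the shares of all genes (19.7% and 31.7%). Fhl2, a LIM protein that binds titin, was lower at 1 day (-2.09, SE 0.16), and Myot, which crosslinks actin at the Z-disc, was lowest at 3 days (-4.37, SE 0.28). The largest rises were in scarce genes. Myoz1, a skeletal muscle relative of Myoz2, had 76 and 93 counts in MI libraries at 3 days, against 6 and 1 in sham (log2 fold change 4.03, SE 0.60). Myoz3 had 2 and 25 counts in MI libraries at 1 day, against 1 and 0 in sham, so that MI library B alone carried the rise (5.25, SE 1.86). Of 9 filamin and filamin chaperone genes, 2 were higher and 5 lower on each day (medians -0.57 and -1.40), so that higher calls were near the share of all genes at 1 day (19.3%) and under it at 3 days (31.7%). Flna, the filamin of non-muscle cells, was higher by 1.33 (SE 0.16) at 1 day and 2.13 (SE 0.16) at 3 days, unlike Flnc at 3 days. Fblim1, which binds filamin, was lowest at 1 day (-1.61, SE 0.26), and the chaperone gene Hspb8 at 3 days (-2.69, SE 0.19).

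Of 7 partners of the Xin proteins, 3 were higher and 1 lower at 1 day (median 0.14), and 2 were higher and 4 lower at 3 days (median -0.67). In lists this short, the 1 lower at 1 day and the 2 higher at 3 days are near the 19.7% and 31.7% of all genes. Vasp, an actin filament elongation factor, was higher on both days (1.23, SE 0.36, and 1.40, SE 0.36), and Ctnna3, the alpha-catenin of heart muscle, was lower on both (-0.82, SE 0.23, and -3.93, SE 0.26). The Xin partner counts at 1 day went to 0 and 0 without either sham library of that day, and to 1 higher with 1 to 3 lower without any of 5 other libraries. At 3 days the 2 higher calls were lost without either MI library or without sham library B of that day. The 11 lower heart muscle genes at 1 day became 6 when sham library A was left out and 7 when B was, the 2 M-band calls became 0 and the 5 filamin calls became 3 without sham library A. No other list count at either day moved by over 1.5 times and by more than 1 gene, apart from the stretch-responsive genes below.

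Of 13 muscle ankyrin repeat, LIM and stretch-responsive genes 12 were read, and 4 were higher and 0 lower at 1 day (median 0.20), while 4 were higher and 3 lower at 3 days (median 0.58). The 3-day counts are close to the shares of all genes, 31.7% higher and 23.7% lower. Ankrd2, the skeletal muscle relative of Ankrd1, had 52.6 and 20.5 CPM in MI libraries at 1 day, against 1.51 and 0.690 CPM in sham. That was the largest rise of the list (log2 fold change 5.08, SE 0.55), at a level far under that of Ankrd1. Csrp2, the smooth muscle relative of Csrp3, had 275 and 290 CPM in MI libraries at 3 days, against 21.7 and 16.1 CPM in sham, and so was higher (3.90, SE 0.22) where Csrp3 was lower. Murc, a caveolar protein of muscle, was lowest at 3 days (-2.66, SE 0.22). Without MI library A at 1 day the counts of this list were 5 higher and 2 lower at 1 day and 4 higher and 5 lower at 3 days.

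**Figure D5:**
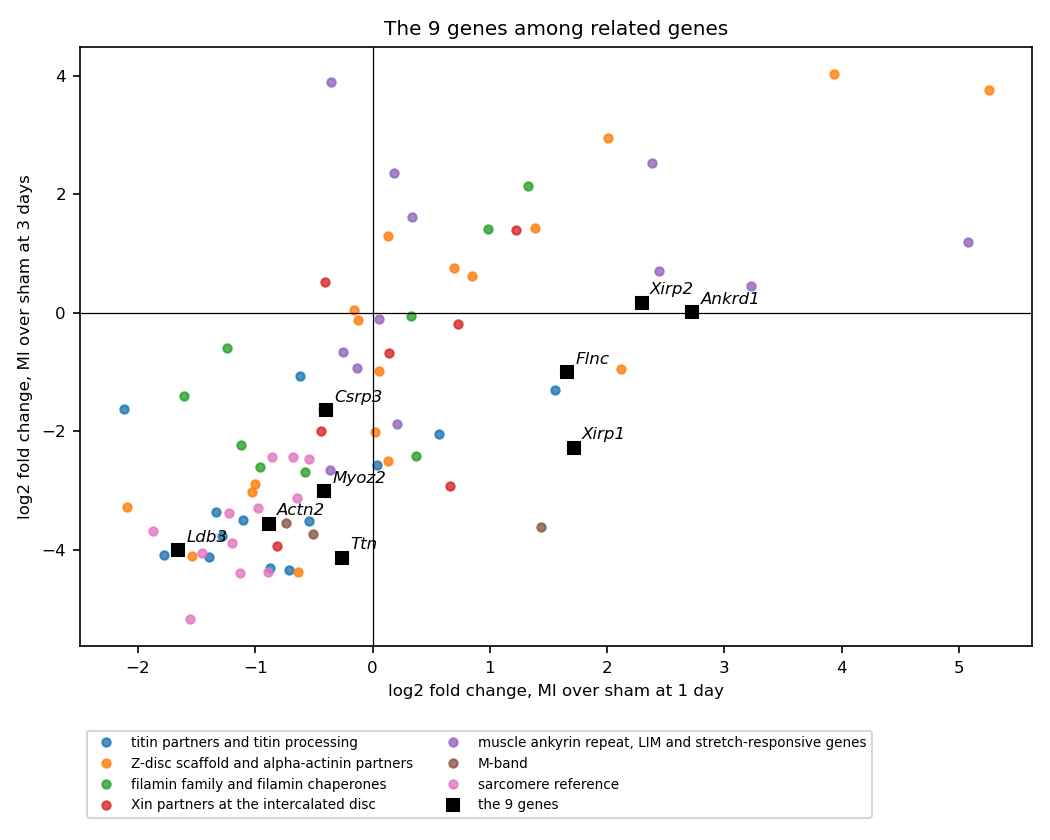
Log2 fold change of MI over sham at 1 day (horizontal) and at 3 days (vertical) for the 9 genes (black squares) and for the tested genes of 7 related lists (coloured points). Titin, Ldb3, Actn2 and Myoz2 lie among the heart muscle reference and titin-partner genes at the lower left, while Ankrd1, Xirp2, Flnc and Xirp1 lie to the right, with 1-day values of 1.66 to 2.73.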

How the data were processed

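Whole-number read counts per gene symbol were deposited in 1 table per day, per the file headers. The submitters' processing notes list build mm10 and, with no role or order given, HTSeq, DESeq2, SAMtools 0.1.2, TopHat2 2.0.14, FastQC and Bowtie2 2.2.5. The authors also deposited DESeq2 tables of log2 fold changes with p-values, and tables of reads per Ensembl transcript, of which 48 other per-library value columns (RPKM among them) were not used here. Counts (24062 genes) were joined by symbol, filtered with filterByExpr, scaled by TMM and fitted by group over all 8 libraries in edgeR 4.0.16 (R 4.3.3, robust quasi-likelihood F test, 2-sided, legacy option off). Benjamini-Hochberg adjustment ran over 15508 genes, and 42808 of 96535 transcripts were tested in the same way on their total reads. The SE is the log2 fold change divided by the square root of F. Summed transcript reads used their own TMM factors. Limma 3.58.1 (voom) and DESeq2 1.42.0 were alternatives, beside other scalings, filters and left-out libraries.

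The members and lists were chosen with earlier results of these data known. Named were all members and, in each list, the called gene with the largest rise and the largest fall on each day; any other gene was named after its values were seen. Ccn2 and Cavin4 were read as Ctgf and Murc, and Ccn1 was not analysed here. Replicate libraries differed beyond sampling noise (chi-square per degree of freedom 17.18 to 64.73), so none was counted as a duplicate, including the 2 sham columns of day 1 that carry the same name. A genome of another build was not used.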

Additional observations from a re-analysis of the deposited data

Results flagged for a closer look

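For all 9 genes the MI effect at 3 days differed from that at 1 day by a test of the difference (edgeR, adjusted p from 0.000223 to 0.00571), and each is listed for that reason. The log2 differences, 3 days minus 1 day, were -3.99 for Xirp1, -3.88 for Ttn, -2.72 for Ankrd1, -2.68 for Actn2, -2.67 for Flnc, -2.60 for Myoz2, -2.35 for Ldb3, -2.12 for Xirp2 and -1.25 for Csrp3. The direction was lower in all 9, where 11.3% of all genes were lower. Ldb3 and Actn2 were called lower on both days. Ttn, Myoz2 and Csrp3 were called lower at 3 days and did not pass at 1 day. Flnc and Xirp1 were called higher at 1 day and lower at 3 days, and Xirp2 and Ankrd1 were called higher at 1 day only. Cardiomyocyte markers moved with these differences, all 10 being lower in the same test, and their part was not tested.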

How the results depend on the processing

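No paired analysis was possible because the count columns carry no replicate number. With 2 mice a group, the fit left 4 residual degrees of freedom, and the p-values of the quasi-likelihood test rest also on spread borrowed across genes. A batch that coincided with MI cannot be told apart from it. Counts of members called in either direction kept within 1.5 times of those reported under every alternative run other than scaling to the 12 heart muscle genes, which left 2 of 9 calls (1 higher, 1 lower) for the difference between days and 4 (2 higher, 2 lower) for MI at 3 days against MI at 1 day, and DESeq2, which called 1 member in sham at 3 days against sham at 1 day. By direction, the 2 lower calls at 1 day became 4 in DESeq2. Under heart muscle scaling the 7 lower and 0 higher calls at 3 days became 0 lower and 6 higher. Flnc, Xirp1, Csrp3 and Myoz2 went from lower to higher, and Ttn, Ldb3 and Actn2 were no longer called. Xirp2 and Ankrd1, not called before, were higher. With each library left out in turn the counts were 4 to 7 at 1 day, 6 to 7 at 3 days, 8 to 9 for the difference, 9 for MI between days and 0 for sham between days. Scaling by library size alone shifted the median of all genes by 0.28 at 1 day and 0.26 at 3 days, and DESeq2 size factors by -0.13 at 3 days.

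Under heart muscle scaling the log2 fold change changed sign at 1 day for Ttn (1.01), Myoz2 (0.84), Csrp3 (0.84) and Actn2 (0.30), and at 3 days for Flnc (2.74), Csrp3 (2.10), Xirp1 (1.47), Myoz2 (0.73) and Actn2 (0.19). It did so for the difference in Csrp3 (1.26), Xirp2 (0.35) and Ldb3 (0.20), for MI at 3 days against 1 day in Csrp3 (1.48), Xirp2 (1.18), Ldb3 (0.25), Myoz2 (0.18) and Ankrd1 (0.032), and for sham at 3 days against 1 day in Ttn (0.40), Myoz2 (0.28), Ankrd1 (0.24), Csrp3 (0.22) and Ldb3 (0.051). That scaling divides by genes that fell, so other values move up by its construction. With library size alone Ttn at 1 day was 0.054, and in sham between days Ttn was 0.12 and Myoz2 0.004.

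Values near 0 also changed sign, and the cause was not tested. Ankrd1 at 3 days was -0.12 with DESeq2 size factors and in DESeq2, -0.002 in limma-voom, -0.22 with the 4 libraries of that day, -0.18 on transcript reads and -0.40 to 0.026 with a library left out. Xirp2 at 3 days was -0.059 with the 4 libraries of that day, -0.014 on transcript reads and -0.21 to 0.31 with a library left out. Ttn in sham between days was -0.72 to 0.42 with a library left out.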

Other observations

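In the authors' deposited table, signed as MI over sham, the log2 fold change at 1 day was 2.60 for Ankrd1, 2.15 for Xirp2, 1.61 for Xirp1, 1.56 for Flnc and -1.65 for Ldb3. At 3 days the authors' deposited table, with its sign turned to MI over sham, gave -4.24 for Ttn, -4.17 for Ldb3, -0.16 for Ankrd1 and 0.001 for Xirp2. The LIM gene Fhl1, named after its values were seen, had 1797 and 1448 CPM in MI libraries at 1 day, against 176 and 170 CPM in sham, and 175 and 186 CPM in MI libraries at 3 days, against 119 and 144 CPM in sham. Nppb, the B-type natriuretic peptide, also named afterwards, had 2261 and 2027 CPM in MI libraries at 1 day, against 404 and 383 CPM in sham, and 866 and 480 CPM in MI libraries at 3 days, against 507 and 316 CPM in sham. Both were called higher at 1 day (log2 fold change 3.23 and 2.45) and did not pass at 3 days (adjusted p = 0.0506 and 0.0645, edgeR quasi-likelihood test). Not all of that list took this course. Nppa overlapped sham at 1 day and had 496 and 515 CPM in MI libraries at 3 days, against 144 and 187 CPM in sham. Ctgf lay above sham on both days, with 598 and 347 CPM in MI libraries at 3 days, against 102 and 62.1 CPM in sham. Synpo2l, a Z-disc protein named afterwards, had 471 and 217 CPM in MI libraries at 1 day, against 79.2 and 79.3 CPM in sham, and 34.3 and 28.9 CPM in MI libraries at 3 days, against 67.3 and 54.2 CPM in sham.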
